A study of Mus musculus with 9 samples.

Results

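Transforming growth factor beta (TGF-beta) signalling was followed through the RNA of its 3 ligands, 3 receptors and 4 SMAD proteins in the mid-foregut of mouse embryos while the lung buds are being induced. The genes were Tgfb1, Tgfb2, Tgfb3, Tgfbr1, Tgfbr2, Tgfbr3, Smad2, Smad3, Smad4 and Smad7. Every probe set with 1 of these 10 symbols as its single annotated symbol was taken, which gave 19 of the 22690 probe sets on the array, for 10 of the 12393 genes read by such probe sets. A probe set is the group of short probes that reads 1 transcript or a few related ones. Of the 19, 11 had a mean signal above a filter on low values and were among the 14266 probe sets tested.

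The embryos were wild type and were staged by counting somites, which are blocks of mesoderm laid down in pairs along the growing body axis. The groups were 16-20 somites (embryonic day 8.5), 21-25 somites (day 9.0) and 26-30 somites (day 9.5), each with 3 biological replicates. A replicate was a pool of 5 to 10 mid-foreguts, cut out between the pharyngeal arches and the liver after the neural tube and heart had been dissected away, and each pool was read on 1 Affymetrix array. No treatment or mutant was included, so each later stage was set against an earlier one. In such bulk tissue, fewer cells of a type and less RNA per cell cannot be told apart.

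TGF-beta ligands are secreted in a latent form and, once released, bind the type II receptor TGFBR2, which recruits and phosphorylates the type I receptor TGFBR1. TGFBR1 phosphorylates SMAD2 and SMAD3, and these enter the nucleus with SMAD4 to regulate target genes, while SMAD7 blocks the receptor complex and is itself a target of the pathway. In the mouse foregut, retinoic acid is known to restrain TGF-beta signalling when the lung buds form. Several of these steps act on proteins, which arrays do not read.

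None of the 11 tested probe sets passed the test in any comparison. By limma with Benjamini-Hochberg adjustment over all 14266 probe sets, 0 had an adjusted p under 0.05 in each of the 3 comparisons (percent called 0), and the smallest adjusted p of a member was 0.4365. The widest log2 differences at 26-30 against 16-20 somites were in Tgfb2 (0.69), in 2 probe sets of Smad4 (0.68 and 0.59), and in Smad7 (0.43) and Tgfbr2 (0.42). At an unadjusted p under 0.05, the count was 1 of 11 members at 26-30 against 16-20 somites, where 10.4% of all tested probe sets had one. It was 2 of 11 at 21-25 against 16-20 somites (9.95% of all) and 0 of 11 at 26-30 against 21-25 somites (3.72% of all).

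Signals are MAS5 intensities on a linear scale, read from the authors' table. Log2 differences come from limma on log2(signal + 26.1), on which changes of dim probe sets come out too small, and are given ± SE. Signals of different probe sets cannot be ranked against each other, so each probe set is compared only with itself across arrays. The number of arrays, 3 per stage, limits the precision: the SE of the members' differences between stages ran from 0.21 to 0.63. In simulated data of the comparison of 26-30 with 16-20 somites, with 14266 probe sets, the fit recovered 0.5% of log2 changes of 0.5, 17.2% of changes of 1 and 76.7% of changes of 2.

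The arrays were not all alike. A narrow-range set of 3 arrays, made up of replicates 1 and 2 of 26-30 somites and replicate 1 of 21-25 somites, had maximum signals of 27480 to 32583.5, while those of the remaining 6 were 43792 to 61749. Beta-actin is read near both ends of its RNA, and its 3'/5' signal ratio, which grows as RNA gets shorter, lay between 20.9 and 22.2 on the narrow-range arrays, against 22.4 to 45.3 elsewhere. Marker genes of foregut endoderm were read, with Foxa1, Foxa2, Sox2, Sox17 and Gata6 tested, while Nkx2-1 and Shh were under the filter. Foxf1 was the 1 of 12 mesenchymal markers under it. Summed signals of the 9 hepatic and 14 cardiac markers with a probe set were highest in 16-20 somites replicate 2, at 39610 and 19860. On the other 8 arrays the sums ranged from 1752 to 9694 for hepatic and from 2782 to 8023 for cardiac markers.

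**Figure D1:**
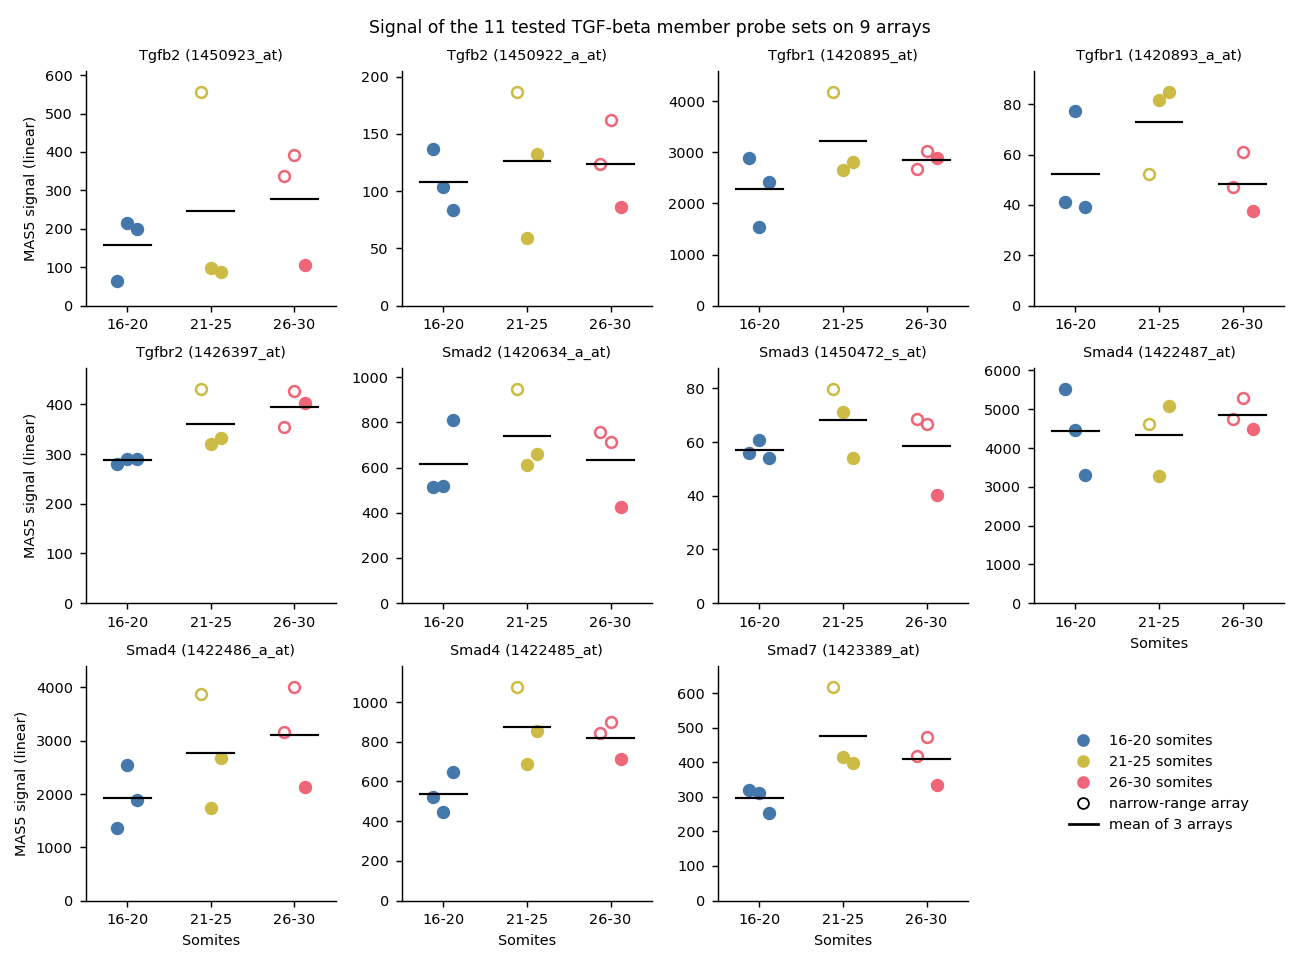
Signal (linear MAS5 scale, each axis from 0) of the 11 tested probe sets of TGF-beta ligands, receptors and SMADs on each of the 9 arrays, by somite stage, with a bar at the mean of 3 arrays. Open points are the 3 narrow-range arrays. Tgfbr2 (1426397_at), Smad4 (1422485_at) and Smad7 lie above all 16-20 somite arrays at both later stages, and in Tgfb2 (1450923_at) the 3 open points are the highest.

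Among the ligands, Tgfb2 gave signals over the filter and Tgfb1 and Tgfb3 did not. Tgfb2 encodes the ligand that binds TGFBR2 poorly without the coreceptor betaglycan. Its brightest probe set (1450923_at) had signals of 62.9, 214 and 198 at 16-20 somites, 556, 97.6 and 88.2 at 21-25 somites, and 336, 392 and 107 at 26-30 somites. The 3 highest of these 9 values were those of the 3 narrow-range arrays, and the groups overlapped in every comparison. The mean was 278 ± 151 at 26-30 somites and 158.5 ± 83.2 at 16-20 somites (SD, n = 3 each), a log2 difference of 0.69 ± 0.63 with an adjusted p of 0.705 in limma. Single arrays moved this value: leaving out replicate 3 of 26-30 somites gave 1.21, leaving out replicate 2 of that stage 0.38, and leaving out replicate 1 of 16-20 somites 0.23. Only 1 array of 26-30 somites remains once the narrow-range arrays are dropped, and its spread is taken to be that of the rest. The difference was then -0.34 ± 0.55.

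The second Tgfb2 probe set (1450922_a_at) had signals of 137, 104 and 83.3 at 16-20 somites, 186.5, 59.1 and 133 at 21-25 somites, and 124, 162 and 85.9 at 26-30 somites. The stages overlapped throughout, and its log2 difference at 26-30 against 16-20 somites was 0.15 ± 0.35. The third, 1423250_a_at, was under the filter and ranged from 7.1 to 107 without separating the stages.

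Tgfb1, the ligand best known from platelets, blood and endothelium, was dim. Its 1 probe set had signals of 45.6, 92.0 and 83.1 at 16-20 somites, 39.2, 34.6 and 12.9 at 21-25 somites, and 52.3, 55.3 and 63.5 at 26-30 somites. The 21-25 somite arrays lay wholly below those of both other stages. In a fit without the filter, over 20380 probe sets, the log2 difference at 21-25 against 16-20 somites was -0.86 with an unadjusted p of 0.0128 and an adjusted p of 0.451 in limma, and at 26-30 against 16-20 somites it was -0.23. Summed signals of the 8 erythroid markers with a probe set were 18370, 32290 and 36620 on replicates 1, 2 and 3 of 21-25 somites. They were 37060 to 40730 at 16-20 somites and 21030 to 57940 at 26-30 somites, and 0 of the 8 were under the filter. Within 21-25 somites the erythroid sum was thus highest on replicate 3, where Tgfb1 was lowest. The 9 platelet and macrophage markers summed to 1250 to 1408 at 21-25 somites and 1201 to 1286 at 16-20 somites, with Aif1, Fcer1g and Ptprc under the filter. The 10 endothelial markers summed to 2087 to 3790 at 21-25 somites and 1963 to 2836 at 16-20 somites. The part of these markers in the Tgfb1 signal was not tested.

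Tgfb3, a ligand known in the mouse for palate closure, had signals of 13.7, 24.2 and 58.7 at 16-20 somites, 112, 21.7 and 72.4 at 21-25 somites, and 58.8, 79.3 and 42.0 at 26-30 somites. The groups overlapped in all 3 comparisons. In the fit without the filter its log2 difference was 0.61 at 26-30 against 16-20 somites, with an adjusted p of 0.657, and 3 of its 9 values lay under the pseudocount of 26.1.

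The receptors were read mainly by 1 bright probe set each of Tgfbr1 and Tgfbr2. The gene for the type II receptor, which the ligand meets first, had values that differed little within the earliest stage. Tgfbr2 (1426397_at) had signals of 281, 291 and 289.8 at 16-20 somites, 430.1, 319 and 333 at 21-25 somites, and 354, 428 and 403 at 26-30 somites. All 6 later values lay above the 3 of 16-20 somites, and those of the later stages overlapped with each other.

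The Tgfbr2 mean was 395 ± 37.7 at 26-30 somites and 287 ± 5.45 at 16-20 somites (SD, n = 3 each). The log2 difference of 0.42 ± 0.21 had a 95% interval from -0.03 to 0.87 and an adjusted p of 0.497 in limma. The difference at 21-25 against 16-20 somites was 0.29 ± 0.21, with an adjusted p of 0.661. The difference at 26-30 against 16-20 somites was 0.45 ± 0.32 without the 3 narrow-range arrays, and 0.11 when the 3 Tgfbr2 probe sets were averaged. The difference at 21-25 against 16-20 somites was 0.17 ± 0.25 without the narrow-range arrays, of which 21-25 somites replicate 1 is the one it rests on. The other probe sets, 1422019_at and 1425444_a_at, had means of 30.4 and 15.2 and were under the filter.

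Tgfbr1 encodes the type I receptor, the kinase that phosphorylates SMAD2 and SMAD3. Its bright probe set (1420895_at) had signals of 2896, 1542 and 2419 at 16-20 somites, 4179.9, 2656 and 2805.5 at 21-25 somites, and 2682, 3016 and 2879 at 26-30 somites. The lowest value was in 16-20 somites replicate 2, the array with the highest hepatic and cardiac marker sums, and the highest was in 21-25 somites replicate 1. The groups overlapped.

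The log2 difference of Tgfbr1 was 0.36 ± 0.27 at 26-30 against 16-20 somites and 0.50 ± 0.27 at 21-25 against 16-20 somites, with adjusted p of 0.633 and 0.550 in limma. Without 16-20 somites replicate 2 these were 0.11 and 0.25. The dim probe set 1420893_a_at, with a mean of 58.0 against a filter level of 57.1, gave -0.05 ± 0.31 and 0.35 ± 0.31. The third, 1420894_at, was under the filter.

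Tgfbr3 encodes betaglycan, the coreceptor that presents the ligands, above all TGF-beta 2, to TGFBR2. It had signals of 26.1, 55.2 and 37.3 at 16-20 somites, 97.0, 74.4 and 52.3 at 21-25 somites, and 47.4, 57.3 and 34.6 at 26-30 somites. The mean was highest at 21-25 somites, but the groups overlapped in all 3 comparisons. The probe set was under the filter, and without it the log2 difference at 21-25 against 16-20 somites was 0.62, with an adjusted p of 0.552 in limma.

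The sequences just upstream of the annotated gene starts are shown for both signalling receptors, since they are the pair the results on receptors turn on and they differ in make-up. They come from RefSeq on GRCm38.p6 and hold the 250 bases before the start, 5' to 3' on the gene's strand. Capitals mark matches to the 4 motifs searched on both strands: CAGAC (the short SMAD-binding box), GGGCGG (the GC box of SP1-type factors), TGACGTCA (the cyclic AMP response element) and TATAAA (the TATA box). The Tgfbr1 stretch is chr4:47352972-47353221 (plus strand) and the Tgfbr2 stretch chr9:116175364-116175613 (minus strand).
Tgfbr1: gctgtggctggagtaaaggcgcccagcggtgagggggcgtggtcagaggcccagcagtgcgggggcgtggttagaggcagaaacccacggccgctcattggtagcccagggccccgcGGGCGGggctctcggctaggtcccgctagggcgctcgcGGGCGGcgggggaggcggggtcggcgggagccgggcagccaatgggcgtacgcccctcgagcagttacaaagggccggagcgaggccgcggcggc
Tgfbr2: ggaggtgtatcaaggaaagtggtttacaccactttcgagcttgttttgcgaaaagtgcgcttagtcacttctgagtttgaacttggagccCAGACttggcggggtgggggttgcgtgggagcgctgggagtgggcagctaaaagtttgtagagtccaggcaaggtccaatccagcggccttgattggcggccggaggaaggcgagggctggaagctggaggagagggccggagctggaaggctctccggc

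The Tgfbr1 stretch held 2 GC boxes and no SMAD box, and the Tgfbr2 stretch held 1 SMAD box and no GC box. G and C made up 74.8% of the bases of Tgfbr1 and 58.4% of those of Tgfbr2. Neither held a TATA box or a cyclic AMP response element. Of 32817 stretches of the same length, 42.2% held CAGAC, 32.7% GGGCGG, 12.4% TATAAA and 1.55% TGACGTCA, so a match to either of the first 2 motifs is common. These matches describe the letters only.

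Smad4, the partner that SMAD2 and SMAD3 share, was read by 3 probe sets, and these differed from each other. In the first (1422485_at) the signals were 524, 444 and 649 at 16-20 somites, 1077, 687 and 854 at 21-25 somites, and 843.5, 899.9 and 713 at 26-30 somites. All 6 later values lay above the 3 of 16-20 somites. The mean was 819 ± 95.7 at 26-30 somites and 539 ± 104 at 16-20 somites (SD, n = 3 each).

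The log2 difference of this probe set was 0.59 ± 0.24 at 26-30 against 16-20 somites, with a 95% interval from 0.07 to 1.11, an unadjusted p of 0.0306 and an adjusted p of 0.4365 in limma. The difference at 21-25 against 16-20 somites was 0.66 ± 0.24, with an unadjusted p of 0.0176 and an adjusted p of 0.442. Without the narrow-range arrays the 2 differences were 0.40 ± 0.36 and 0.50 ± 0.29. It was also the 1 member probe set with an unadjusted p under 0.05 in the F test over the 3 stages together, beside 8.58% of all tested, and its adjusted p there was 0.559.

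The second Smad4 probe set (1422486_a_at) had signals of 1356, 2542 and 1894 at 16-20 somites, 3877, 1731.5 and 2678 at 21-25 somites, and 3166, 4010.5 and 2139 at 26-30 somites. Its 3 highest values were again those of the narrow-range arrays, and the stages overlapped. The log2 difference at 26-30 against 16-20 somites was 0.68 ± 0.34, and 0.19 ± 0.42 without the narrow-range arrays.

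The brightest Smad4 probe set (1422487_at) had signals of 5510.2, 4464 and 3316 at 16-20 somites, 4615.5, 3271 and 5095 at 21-25 somites, and 4754, 5284 and 4493 at 26-30 somites. Its highest value was at 16-20 somites, and the groups overlapped in all comparisons. The log2 difference was 0.16 ± 0.25 at 26-30 against 16-20 somites and -0.03 ± 0.25 at 21-25 against 16-20 somites. The separation of the stages in 1422485_at was therefore not seen in the brightest probe set of the same gene, and the difference between the probe sets was not tested.

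Smad7, which encodes the inhibitory SMAD that targets the receptors and is induced by the pathway, had 1 probe set. Its signals were 321, 312 and 253 at 16-20 somites, 618.5, 416 and 398 at 21-25 somites, and 419, 472 and 335 at 26-30 somites. All 6 later values lay above the 3 of 16-20 somites, with the highest in 21-25 somites replicate 1. The mean was 478 ± 122 at 21-25 somites and 296 ± 36.8 at 16-20 somites (SD, n = 3 each).

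The log2 difference of Smad7 at 21-25 against 16-20 somites was 0.63 ± 0.24, with a 95% interval from 0.11 to 1.15, an unadjusted p of 0.0225 and an adjusted p of 0.448 in limma. At 26-30 against 16-20 somites it was 0.43 ± 0.24, with an adjusted p of 0.537. It was -0.20 ± 0.24 at 26-30 against 21-25 somites. Smad7 had the smallest p among members for a difference between both steps, -0.82 ± 0.41 for the second minus the first, with an unadjusted p of 0.0700 and an adjusted p of 0.878. At an unadjusted p under 0.05 the count for that difference was 0 of 11 members, beside 5.52% of all tested. Without the narrow-range arrays the first 2 differences were 0.44 ± 0.26 and 0.17 ± 0.33.

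Smad2 and Smad3 encode the SMADs that the receptor phosphorylates, and they had the log2 differences closest to 0 of the tested members at 26-30 against 16-20 somites, though not in the other comparisons. Smad2 had signals of 514, 520.3 and 812 at 16-20 somites, 946, 610.1 and 662 at 21-25 somites, and 758, 714 and 427.5 at 26-30 somites. The lowest value of the 9 was in 26-30 somites replicate 3 and the highest in 21-25 somites replicate 1, and the stages overlapped. The log2 difference at 26-30 against 16-20 somites was 0.03 ± 0.29, with a 95% interval from -0.60 to 0.66, and at 21-25 against 16-20 somites it was 0.26 ± 0.29. Without the narrow-range arrays the first of these was -0.47 ± 0.38.

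Smad3 was dim in both of its probe sets. The tested one (1450472_s_at, a suffix that Affymetrix gives to probe sets shared by several transcripts) lay between 40.2 and 79.6 on all 9 arrays, with 26-30 somites replicate 3 the lowest. Its log2 difference at 26-30 against 16-20 somites was 0.01 ± 0.28. The other probe set, 1450471_at, ranged from 9.9 to 95.8 within 26-30 somites alone and was under the filter.

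**Figure D2:**
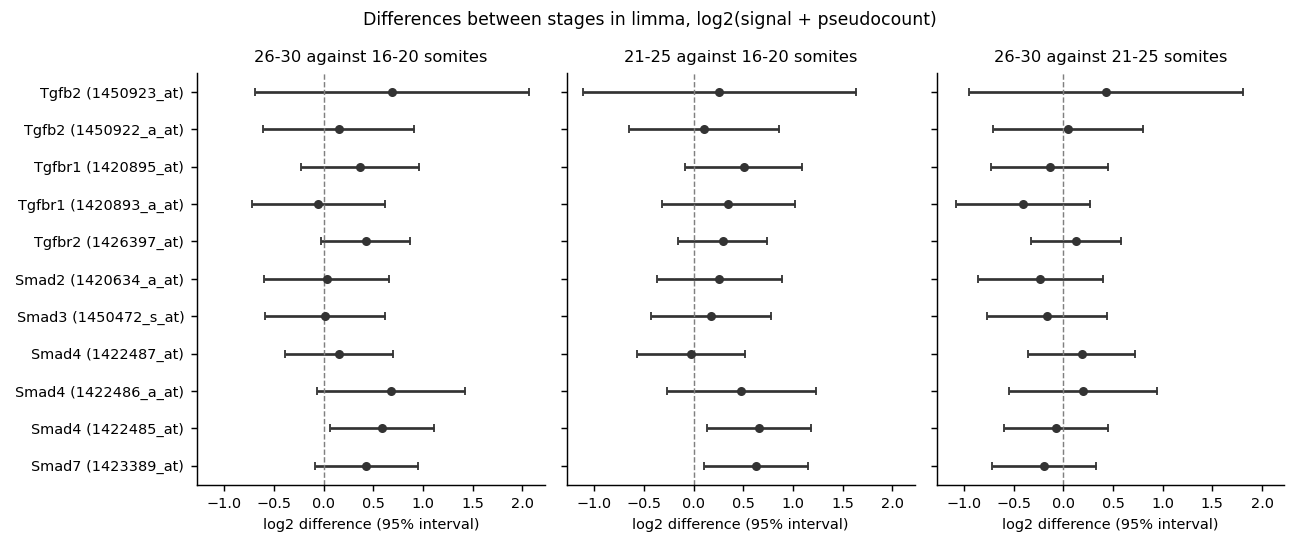
Log2 differences of the 11 tested probe sets in limma on log2(signal + 26.1), with 95% intervals, for each pair of stages. The intervals of Smad4 (1422485_at) exclude 0 at 26-30 and at 21-25 against 16-20 somites, as does that of Smad7 at 21-25 against 16-20 somites. None of the 33 differences had an adjusted p under 0.05.

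Set side by side, most members had positive differences against the earliest stage. At 26-30 against 16-20 somites 10 of 11 tested probe sets were above 0, beside 51.6% of all tested, and their median log2 difference was 0.36, against 0.02 over all tested probe sets. At 21-25 against 16-20 somites 10 of 11 were above 0, beside 50.9%, with a median of 0.29 against 0.01. Both comparisons share the 16-20 somite arrays. At 26-30 against 21-25 somites 5 of 11 were above 0, beside 51.5%, with medians of -0.07 and 0.01. Over all 19 member probe sets in the fit without the filter, 15 were above 0 at 26-30 against 16-20 somites and 17 at 21-25 against 16-20 somites, beside 48.6% of all probe sets in each, and 8 at 26-30 against 21-25 somites, beside 50.5%. An unadjusted p under 0.05 was found in 1, 4 and 0 of the 19 in these comparisons, beside 9.26%, 8.95% and 3.73% of all. The 4 were Smad4 (1422485_at), Smad7 and Tgfbr3, which were higher, and Tgfb1, which was lower. Tgfbr3 and Tgfb1 were under the filter. These 19 probe sets come from 10 genes and share arrays.

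The 3 arrays of the later stage lay wholly above those of 16-20 somites in 3 of 11 member probe sets at 26-30 somites, beside 10.9% of all tested, and in 3 of 11 at 21-25 somites, beside 6.4%. These were Tgfbr2 (1426397_at), Smad4 (1422485_at) and Smad7 in both cases. In none of the 11 did the later arrays lie wholly below, beside 9.6% and 6.97% of all tested. At 26-30 against 21-25 somites the arrays of the stages overlapped in all 11, while 4.48% of all tested lay wholly higher and 4.67% wholly lower.

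The members' high values were not spread evenly over the arrays. Of the 11 tested probe sets, 8 had their highest value on 21-25 somites replicate 1, where 23% of all tested probe sets had theirs. The median deviation of the members from their own mean over 9 arrays was 0.56 on that array, against 0.14 for all tested probe sets. At the same stage it was -0.08 in replicate 2 and 0.05 in replicate 3. At 26-30 somites it was 0.12 and 0.29 in the narrow-range replicates 1 and 2, and -0.20 in replicate 3, where 3 of 11 members lay above their mean. At 16-20 somites it was -0.27, -0.11 and -0.23.

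In 3 of 11 probe sets, 1 each of Tgfb2, Smad4 and Smad7, the 3 narrow-range arrays lay wholly above the other 6, beside 9.75% of all tested. Without these 3 arrays, 6 of 11 members were above 0 at 26-30 against 16-20 somites, beside 49.7% of all, with a median of 0.05. At 21-25 against 16-20 somites the count was 8 of 11, beside 44.7% of all, with a median of 0.17 against -0.05 over all. At 26-30 against 21-25 somites it was 4 of 11, beside 54.9% of all. Each array was also weighted by how far it scattered. At 26-30 against 16-20 somites 0 of the 11 members then had an adjusted p under 0.05 in limma, beside 4.32% of all tested. The summed signal of the 12 mesenchymal markers was also highest on 21-25 somites replicate 1, at 21090, against 10240 to 15050 on the other 8, and so was that of the 10 endothelial markers, at 3790 against 1963 to 2836, with Pecam1 and Tie1 under the filter. The sums of the neural and the foregut endoderm markers were highest there too, at 1149 and 5841, while those of the 8 epithelial and 8 erythroid markers were lowest, at 5815 and 18370. Krt8 and Krt18 made up most of that epithelial sum, at 2185.6 and 1353.8, and single markers differed from it. Cdh1 was at its highest on that array, at 436.7, and Epcam, at 595.1, was below only the 726.4 of 26-30 somites replicate 2. Epithelial sums were 6209 to 7093 at 26-30 somites and 5815 to 6993 at 21-25 somites, both wholly below the 7128 to 15740 of 16-20 somites. A log2 difference above 0 at 21-25 against 16-20 somites was found in 10 of 11 members. It was found in 10 of 11 tested mesenchymal markers and 0 of 8 epithelial ones. For endothelial, neural and foregut endoderm markers the counts were 7 of 8, 5 of 6 and 4 of 5. For platelet and macrophage, cardiac, hepatic and erythroid markers they were 4 of 6, 4 of 12, 2 of 8 and 2 of 8. At 26-30 against 16-20 somites members, mesenchymal and epithelial markers had 10 of 11, 7 of 11 and 3 of 8. Endothelial, neural and foregut endoderm markers had 4 of 8, 5 of 6 and 4 of 5. The remaining lists, in the order above, had 4 of 6, 3 of 12, 0 of 8 and 4 of 8. The part of these markers in the member signals was not tested.

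**Figure D3:**
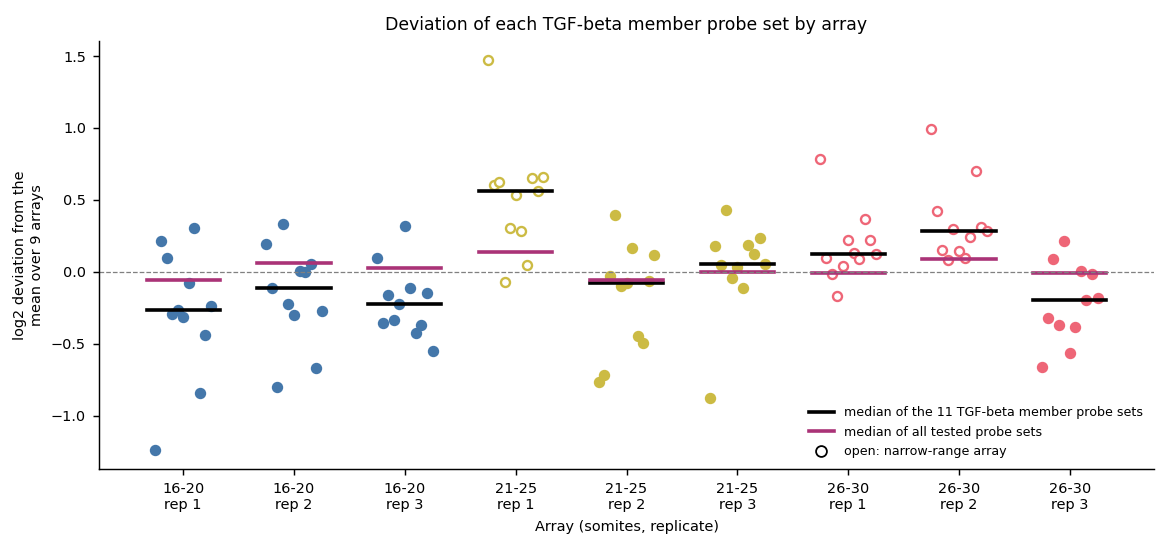
Log2 deviation of each of the 11 tested member probe sets from its own mean over 9 arrays (points, open on the narrow-range arrays), with the median of the members (black bar) and of all 14266 tested probe sets (purple bar). The members' median is highest on 21-25 somites replicate 1, at 0.56, and lies below 0 on the 3 arrays of 16-20 somites, on 21-25 somites replicate 2 and on 26-30 somites replicate 3.

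The wider pathway was read with 4 lists of genes that bear on TGF-beta signalling. Of 90 listed symbols, among which Ctgf is the older name of Ccn2, 77 had a probe set and 67 were tested by their brightest one. By limma 0 of the 67 passed in any of the 3 comparisons. At 26-30 against 16-20 somites 4 had an unadjusted p under 0.05 and were higher and 3 had one and were lower, together 10.4%, beside 10.4% of all tested probe sets. The counts were 5 and 1 at 21-25 against 16-20 somites (8.96%), beside 9.95%, and at 26-30 against 21-25 somites 1 and 3 (5.97%), beside 3.72%. These shares of all tested count probe sets, not genes. With the brightest probe set per gene, 965 of 8675 had such a p at 26-30 against 16-20 somites. Taking the lists in the order below, 15, 11, 21 and 20 genes were tested. Arrays of 26-30 somites lay wholly above those of 16-20 somites in 3, 0, 2 and 3 of them, beside 10.9% of all tested. They lay wholly below in 0, 0, 1 and 4, beside 9.6%. The genes named below have the smallest p in this comparison, so their lack of overlap follows in part from that choice.

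Genes that act on the ligands outside the cell had a median log2 difference of 0.16 at 26-30 against 16-20 somites over 15 of 21 listed genes, with 10 positive and 0 passing. Ltbp3, a latent TGF-beta binding protein that carries the inactive ligand, had signals of 557, 516 and 982 at 26-30 somites, against 411, 271 and 361 at 16-20 somites, without overlap. Its log2 difference was 0.89 ± 0.32, with an adjusted p of 0.4195. Furin, the protease that cleaves the ligand precursor, also had no overlap, with 0.44 ± 0.22, whereas Nrros (0.58 ± 0.31), which anchors latent TGF-beta in myeloid cells, and the integrin subunit gene Itgav (0.38 ± 0.23, and 0.23 in its other tested probe set), whose integrins release the ligand, overlapped between the stages. Both Ltbp3 and Nrros had 0.80 at 21-25 against 16-20 somites, without overlap.

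The activin and nodal branch, whose ligands also signal through SMAD2 and SMAD3, had 11 tested genes of 18 listed, 6 positive and 5 negative, with a median of 0.06 and 0 passing. The genes with the smallest p were the activin receptor Acvr2a (0.55 ± 0.31), the SMAD2 partner Foxh1 (-0.37 ± 0.32), the ligand Gdf11 (0.27 ± 0.28) and the inhibin beta B subunit Inhbb (0.45 ± 0.49). The dimmer tested probe set of Acvr2a gave 0.05. The arrays of the 2 stages overlapped in all of them. Nodal itself gave -0.11 ± 0.27, and its target Lefty1 0.06.

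Among regulators of the receptors and SMADs, 21 of 26 listed genes were tested, 15 of them positive, with a median of 0.11 and 0 passing. Pmepa1, a target gene whose protein keeps SMAD2 and SMAD3 from the receptor, had signals of 122, 162 and 81.9 at 26-30 somites, against 33.3, 45.6 and 67.1 at 16-20 somites. The groups did not overlap, and the log2 difference was 0.97 ± 0.30 with an unadjusted p of 0.00664 and an adjusted p of 0.3865. At 21-25 somites its signals were 139, 105 and 91.0, also above all of 16-20 somites, a difference of 0.89 ± 0.30. Skil, which encodes a SMAD corepressor, had 0.58 ± 0.29 at 26-30 against 16-20 somites without overlap, but its dimmer probe set gave -0.22.

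Bambi, which encodes a decoy receptor, differed the other way. Its signals were 579, 541 and 526 at 26-30 somites, against 663, 1248 and 792 at 16-20 somites, again without overlap. The log2 difference was -0.64 ± 0.25, with an adjusted p of 0.425. Endoglin (Eng), a coreceptor of endothelial cells, had 1.00 ± 0.36 in its brighter probe set and 0.28 in the other, with overlapping groups. The 10 endothelial markers summed to 2262 to 2825 at 26-30 somites and 1963 to 2836 at 16-20 somites.

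Of the known response genes of the pathway, 25 were listed and 20 tested. At 26-30 against 16-20 somites 11 were positive and 9 negative, with a median of 0.15 and 0 passing. At 21-25 against 16-20 somites 14 were positive and 6 negative, with a median of 0.28 and 0 passing. The list was not split into genes that the pathway induces and genes that it represses. Tagln, which encodes the smooth muscle protein transgelin, had signals of 113, 156 and 64.9 at 26-30 somites, against 195, 407 and 355 at 16-20 somites. The groups did not overlap, and the log2 difference of -1.33 ± 0.34 had an unadjusted p of 0.00231 and an adjusted p of 0.357, the smallest of the 4 lists. At 21-25 somites its signals were 153, 78.7 and 148, also below all of 16-20 somites, a log2 difference of -1.16 ± 0.34. Tagln is also known from the early heart. The summed signal of the 14 cardiac markers was 3722, 19860 and 4794 on replicates 1, 2 and 3 of 16-20 somites. It was 6097 to 6424 at 21-25 somites and 2782 to 8023 at 26-30 somites, with Tnni3 and Myl2 under the filter. The part of the cardiac markers in the Tagln signal was not tested.

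Fibronectin (Fn1), a matrix protein, had -0.53 ± 0.24 in its brightest probe set without overlap, and 0.77 in a dimmer one. Its brightest probe set read 6126.5, 3365 and 4444 at 21-25 somites, so the middle stage held the highest value. The cell cycle inhibitor gene Cdkn1a had 439, 454 and 562 at 26-30 somites, against 360.5, 324 and 307.5 at 16-20 somites, without overlap, and a log2 difference of 0.51 ± 0.20. Tgfbi, a matrix gene named for its induction by TGF-beta, had 0.69 ± 0.32 with overlapping groups, and its other 3 probe sets gave -0.19, 0.13 and 0.27.

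**Figure D4:**
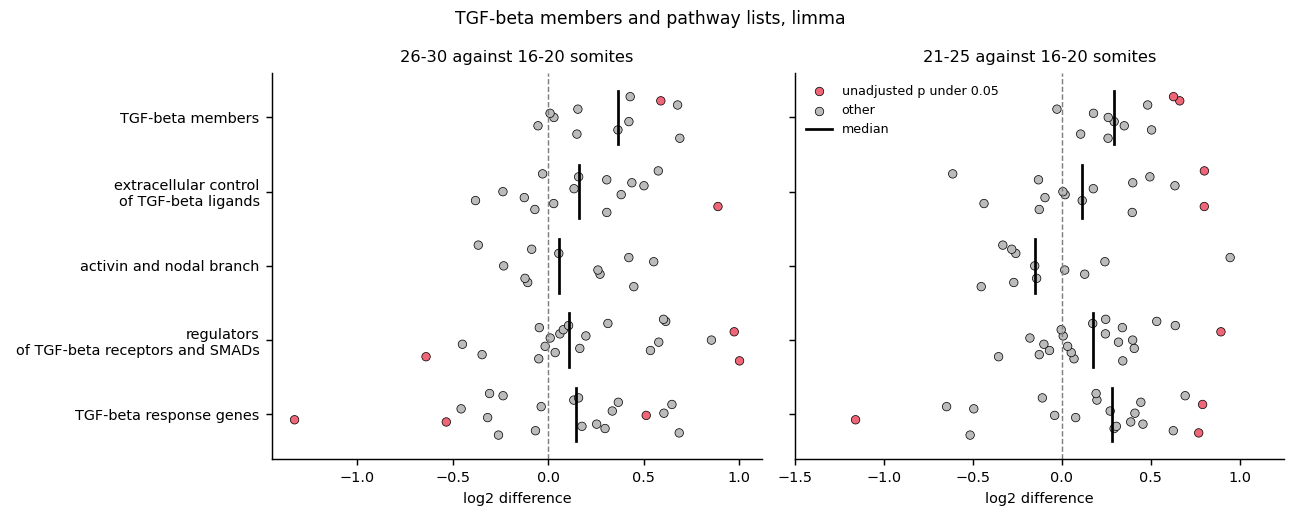
Log2 differences in limma of the 11 tested member probe sets and of the tested genes of 4 pathway lists, at 26-30 and at 21-25 against 16-20 somites. Each point is 1 probe set, red where the unadjusted p is under 0.05, and bars are medians. The response genes lie on both sides of 0, with Tagln the lowest at -1.33 and -1.16.

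The genes whose signal followed a member most closely over the 9 arrays were found among 9505 other genes. For Tgfb2 (1450923_at) they were Mrpl38, Rgl1 and Prune1, with Pearson correlations of 0.960, 0.959 and 0.956 over 9 arrays. For Tgfbr2 (1426397_at) they were Mcam (0.976), Deptor (0.957) and Itpkb (0.947), and for Smad4 (1422486_a_at) Wdfy1 (0.977), Igf1 (0.970) and Ace (0.964). These values describe likeness only: the arrays share stage and signal range, and the closest of many genes is close by selection.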

How the data were processed

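RNA from 9 pools of mouse mid-foregut was read on Affymetrix arrays after 100 ng of total RNA had passed through 2 rounds of amplification, per the labels' protocols. The deposited intensity values were made with MAS5, per the submitters' processing notes, whose version and scaling target those notes leave out. With the outer 2% of values at each end removed, array means were 500.2 to 500.3.

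The platform's annotation gave 20380 probe sets 1 gene symbol, 691 several and 1555 none, beside 64 controls; only the first kind was used. Values were taken to log2 after adding 26.1, the 20th percentile, without further normalization. Probe sets with a mean signal under 57.1, the 30th percentile, were left out. Stage means were fitted to all 9 arrays with limma 3.58.1 in R 4.3.3 (lmFit, eBayes with a trend). Tests were two-sided with Benjamini-Hochberg adjustment over the 14266 probe sets at 0.05. The p-values measure the spread between pools, arrays included. Pairs of identical arrays numbered 0, and correlations across probe sets were 0.930 to 0.980 within stages.

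Members and lists were chosen with earlier results of these data known. All member probe sets are named, as are the 4 genes per list with the smallest p at 26-30 against 16-20 somites, and the 3 genes most like the widest-differing ligand, receptor and SMAD probe set. Nodal and Lefty1 were added after their values were seen. The fit was tested on 20 simulated sets with 200 changed probe sets each, and made 3.05 false calls on average. Promoter sequences came from RefSeq, and entries of 1 chromosome were left out. Those kept held 1 at the gene start for Tgfb1, Tgfbr1, Tgfbr2 and Smad3, so other members may have one. They held no entry for Smad2, Smad4, Smad7, Tgfb3 and Tgfbr3. Alternatives were quantile or median normalization, pseudocounts of 6.52 and 104, other filters (none, the 50th percentile), an untrended eBayes, weighted arrays, replicate number as a block, 1 probe set or the mean per gene, fits to the 6 arrays compared and to 8 of the 9 arrays, and, added after seeing the data, a fit without the 3 narrow-range arrays.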

Additional observations from a re-analysis of the deposited data

How the results depend on the processing

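The member differences were recomputed under 22 other settings, some of which cannot move a given difference. Of the 687 values from the 22 settings, 45 changed sign, in 17 of 33 differences. None of the 11 members passed in any of these settings, the smallest adjusted p being 0.0864 for Smad4 (1422486_a_at) with array weights. Tgfbr1 (1420895_at), Tgfbr2, Smad7 and Smad4 (1422485_at and 1422486_a_at) kept positive differences at both later stages against 16-20 somites in all settings. Other filters, an untrended eBayes, the replicate block and a fit to only the arrays compared leave a difference as it is. So does leaving out an array of the stage not compared. In all of these, Tgfb2 (1450923_at) stayed at 0.69 at 26-30 against 16-20 somites. The 687 values include such cases, so the share that kept its sign says less about stability. Without the narrow-range arrays the difference at 26-30 against 16-20 somites was -0.34 and -0.24 in Tgfb2 (1450923_at and 1450922_a_at), -0.47 in Smad2 and -0.32 in Smad3. At 21-25 against 16-20 somites it was -0.50 and -0.18 in Tgfb2, and at 26-30 against 21-25 somites -0.055 in Tgfb2 (1450922_a_at), 0.0763 in Tgfbr1 (1420895_at) and -0.0103 in Smad4 (1422486_a_at). Array weights gave -0.0026 in Tgfb2 (1450922_a_at) at 26-30 against 21-25, 0.026 in Tgfbr1 (1420893_a_at) at 26-30 against 16-20, -0.39 in Tgfb2 (1450923_at) and 0.25 in Smad4 (1422487_at) at 21-25 against 16-20, and 0.0094 in Smad2 and 0.0798 in Smad3 at 26-30 against 21-25 somites. Quantile normalization gave -0.0123 in Smad2 at 26-30 against 16-20 and 0.0044 in Smad4 (1422487_at) at 21-25 against 16-20 somites, and the mean of all probe sets gave 0.37 in Smad4 at 21-25 against 16-20 and -0.0293 in Tgfbr2 at 26-30 against 21-25 somites. The causes were not tested.

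Leaving out single arrays gave, at 26-30 against 16-20 somites, 0.23 to 1.21 in Tgfb2 (1450923_at), -0.0284 to 0.34 in Tgfb2 (1450922_a_at), -0.17 to 0.16 in Tgfbr1 (1420893_a_at), -0.12 to 0.28 in Smad2, -0.0821 to 0.18 in Smad3 and -0.0372 to 0.33 in Smad4 (1422487_at). At 21-25 against 16-20 somites it gave -0.50 to 0.67 and -0.18 to 0.48 in the Tgfb2 probe sets and -0.22 to 0.16 in Smad4 (1422487_at). At 26-30 against 21-25 somites it gave -0.325 to 0.33 in Tgfb2 (1450922_a_at), -0.26 to 0.0645 in Tgfbr1 (1420895_at), -0.38 to 0.0187 in Smad2, and -0.10 to 0.48, -0.23 to 0.0867 and -0.005 to 0.3126 in Smad4 (1422486_a_at, 1422485_at and 1422487_at).

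Over all probe sets, the count called by limma was 0 in each comparison. With array weights it was 616 at 26-30 against 16-20 somites, 1 at 26-30 against 21-25 somites and 144 in the F test, the weights being lowest for 21-25 somites replicate 2 (0.371) and highest for 26-30 somites replicate 1 (3.07). Leaving out single arrays gave 0 to 1 at 26-30 against 16-20 somites (1 without 26-30 somites replicate 3), and 0 to 3 at 21-25 against 16-20 somites, 0 to 1 for the difference between the steps and 0 to 1 in the F test (each without 21-25 somites replicate 3). The count at an unadjusted p under 0.05 at 26-30 against 16-20 somites was 472 without the narrow-range arrays, 748 and 777 without 26-30 somites replicate 2 or 1, 965 without 16-20 somites replicate 2, 965 and 870 with 1 probe set or the mean per gene (fewer features), 2251 with only the 6 arrays compared and 3543 with array weights, against 1483 as reported. At 21-25 against 16-20 somites it was 762 without the narrow-range arrays, 916 without 16-20 somites replicate 2 and 847 with the mean per gene, against 1419. At 26-30 against 21-25 somites it was 280 without the narrow-range arrays, 298 without 26-30 somites replicate 1, 345 and 319 per gene, 1224 without 21-25 somites replicate 1 and 2082 with array weights, against 531. For the difference between the steps it was 367 without the narrow-range arrays, 488 with the mean per gene, 1235 without 21-25 somites replicate 3 and 1329 with array weights, against 787. Same-numbered replicates did not deviate together in every pair of stages (correlations across probe sets from -0.258 to 0.231). With 3 arrays per stage this cannot show whether a number stands for a shared batch, and the numbers are used here to name arrays. In limma with the replicate number as a block the counts called were 0, with 1509 at an unadjusted p under 0.05 at 26-30 against 16-20 somites.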
